A study of Mus musculus with 8 samples.

Results

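Abca1 and 7 other genes of high-density lipoprotein (HDL) metabolism were examined in the livers of WT mice and of mice without miR-33 in hepatocytes (HKO). The group was taken by symbol from the deposited table of 17810 genes, and all 8 genes were found in it and passed the filter on low counts. It holds the cholesterol transporters Abca1 and Abcg1, the HDL apolipoproteins Apoa1 and Apoa2, the plasma remodelling proteins Lcat, Pltp and Lipc, and the HDL receptor Scarb1. RNA-Seq was run on whole liver of 4 WT and 4 HKO male mice, with 1 library per liver. HKO mice carried floxed miR-33 alleles removed by Cre recombinase under the albumin promoter, which is active in hepatocytes, so the deletion was directed to these cells. WT mice were their littermates. Both genotypes were 5 months old and had eaten CD-HFD, a diet rich in fat and lacking choline, during 3 months from 8 weeks of age. In whole liver, fewer cells of a type and less RNA per cell cannot be told apart.

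HDL is the lipoprotein that carries cholesterol from peripheral cells back to the liver. ABCA1 passes cholesterol and phospholipid to lipid-poor apolipoprotein A-I, which gives rise to nascent HDL, and ABCG1 loads cholesterol onto the particle once it has formed. LCAT esterifies this cholesterol, PLTP and hepatic lipase reshape the particle, and SR-BI, the product of Scarb1, takes its cholesteryl esters into the hepatocyte. miR-33 lies in an intron of Srebf2, the gene of a transcription factor that turns on cholesterol synthesis and uptake, and Abca1 is its best-known target. A miRNA pairs through its seed, bases 2 to 8, with matching letters in the 3'UTR of an mRNA and lowers the stability or translation of that mRNA.

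The sequences that set Abca1 and Abcg1 apart from the other 6 genes are those of the miRNA and of the matching stretches in their 3'UTRs. Both arms of the miRNA are shown 5' to 3' with the seed in capitals, from RefSeq on GRCm38. The miR-33-5p arm lies at chr15:82198127-82198147 and the miR-33-3p arm at chr15:82198167-82198188, both on the plus strand.
miR-33-5p: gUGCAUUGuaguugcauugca
miR-33-3p: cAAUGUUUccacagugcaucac
The seed of miR-33-5p pairs with CAATGCA, or with AATGCAA where the last A lies opposite the first base of the miRNA, and a stretch that holds both is a match over 8 bases. The windows below are the gene strand of the 3'UTR on GRCm38, 30 bases each, with every letter that belongs to a match in capitals. The window of Abca1 is chr4:53033782-53033811 on the minus strand, and those of Abcg1 are chr17:31114996-31115025 and chr17:31117355-31117384 on the plus strand.
Abca1: attCAATGCAATGCActtCAATGCAAcgag
Abcg1, first window: gcaacgCAATGCAAcgCAATGCAgacagtg
Abcg1, second window: tgcaaacataaAATGCAActcgggtgcagt

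Abca1 held 3 matches within this single window, near the stop codon of a 3'UTR of 3156 bases. Matches over 8 bases spanned bases 135 to 142 and 150 to 157 after the stop codon, and a match over 7 bases spanned bases 140 to 146 and overlapped the first. Abcg1 also held 3 matches, in a 3'UTR of 3703 bases. Its match over 8 bases began 717 bases after the stop codon, a match over 7 bases began at base 727, and the last, at base 3081, stood alone. The 3'UTRs of Apoa1, Apoa2, Lcat, Pltp and Lipc were between 21 and 188 bases long and that of Scarb1 779 bases, and none of them held a match. In none of the 8 genes did the coding sequence hold a match to miR-33-5p or the 3'UTR a match to miR-33-3p. The map of matches along the 3'UTRs shows this difference in length and in content. Among 11529 genes with a 3'UTR of at least 50 bases, 16.2% held at least 1 match to miR-33-5p, 3.06% at least 2, and 2.11% at least 1 over 8 bases. Only 7 genes, or 0.0607%, held at least 2 matches over 8 bases, and Abca1 was one of them. These are matches of letters and say nothing of whether a site is bound.

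**Figure D1:**
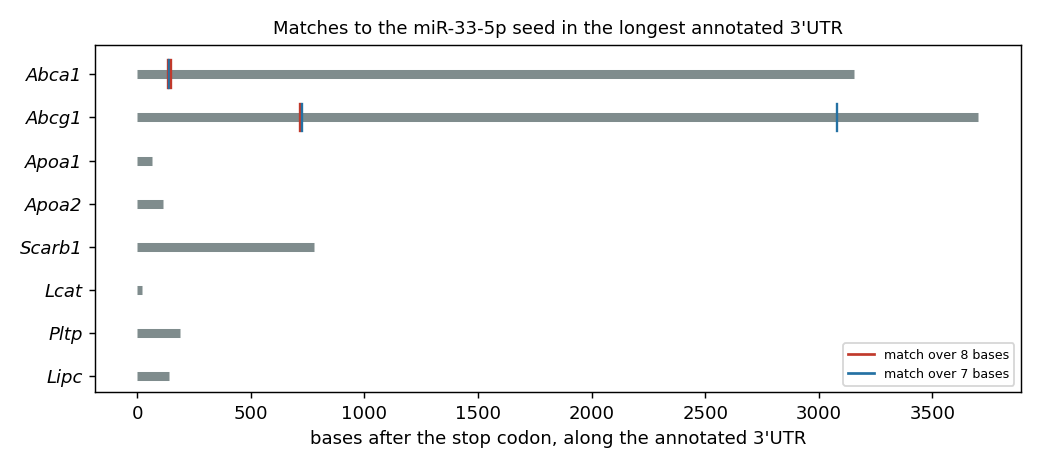
Position of matches to the miR-33-5p seed in the longest 3'UTR annotated for each gene, in bases after the stop codon; grey bars are the 3'UTRs, red marks matches over 8 bases and blue marks matches over 7 bases. The matches of Abca1 lie between bases 135 and 157, and the 6 genes below Abcg1 have no mark.

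The authors deposited estimated read counts per gene, with 12174339 to 18735785 counts per liver. They are given here as CPM (each library's counts brought to the same total, with TMM factors), and differences as log2 fold changes of HKO over WT with their SE. A gene was called changed where the quasi-likelihood test of edgeR gave an adjusted p under 0.05, by the Benjamini-Hochberg method over all 12395 genes tested. A count of 3, taken as the floor of a library, corresponded to 0.149 to 0.255 CPM, for counting error only, and each of the 8 genes had at least 56 counts in every liver. HKO replicate 3 stood apart from its group: the chi-square per degree of freedom between its counts and those of another HKO liver was 123 to 138, against 20.8 to 48.1 for the 9 other pairs of livers of a genotype. HKO livers had the library numbers 55 to 58 and WT livers 59 to 62, so library order and genotype cannot be told apart. Mir33 itself was not analysed here, and the genotype was taken from the labels. The p-values of edgeR set the difference between the genotypes against the spread of these livers within a genotype. Litter was not a term of the model.

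Abca1 was higher in every HKO liver than in any WT liver and was the 1 gene of the 8 that passed the test. Of all genes tested 5.03% were called, 1.66% as higher and 3.37% as lower in HKO livers. Among the 8 log2 fold changes, 6 were above 0 and 2 were below. Their median was 0.31, beside 0.01 for all genes tested. In 2 of the 8 genes, Abca1 and Pltp, the genotypes did not overlap, which was so for 12.5% of all genes tested. An unadjusted p under 0.05 was found for 5 of the 8. The share of all genes at that p was not taken, so this count is a description. DESeq2 called 4 of the 8, Abca1, Scarb1, Lipc and Pltp, beside 7.18% of the genes it tested. The tool limma-voom called 1 of the 8, Abca1, beside 603 of 12395 genes.

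**Figure D2:**
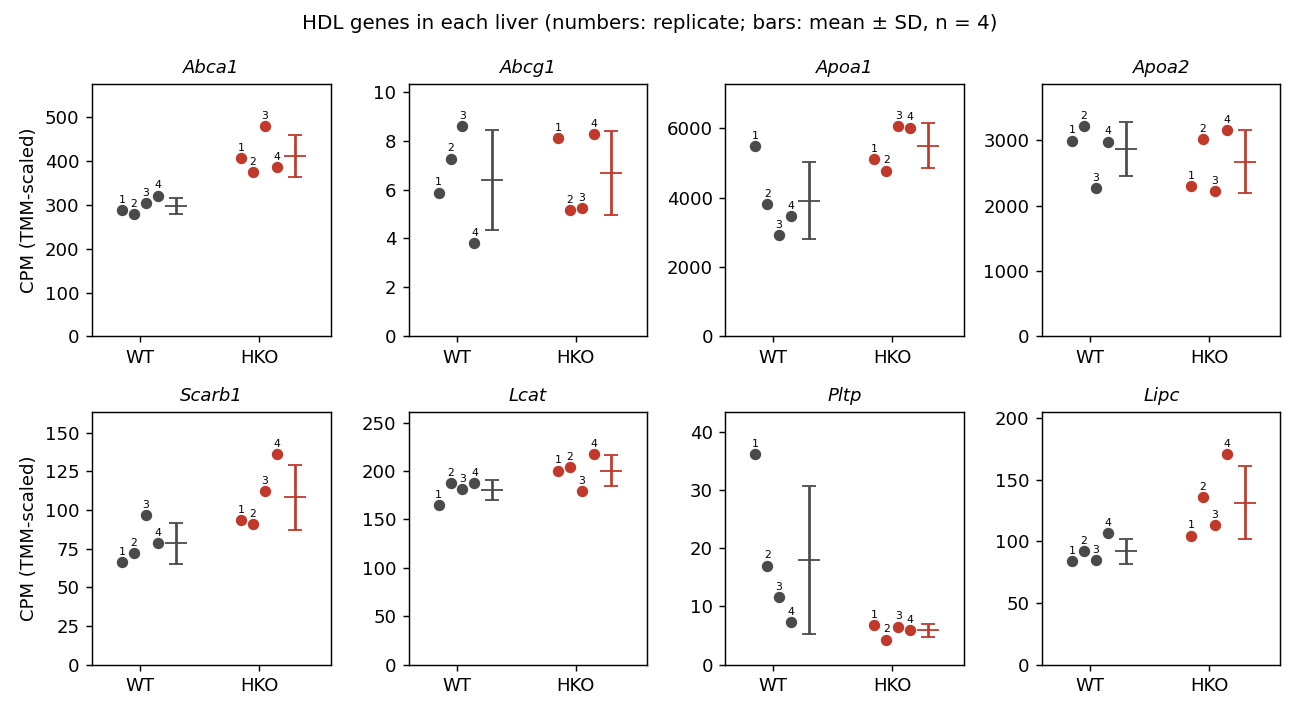
CPM of the 8 HDL genes in each liver, with WT in grey and HKO in red; each point is 1 liver, the number is its replicate, and bars give the mean ± SD of 4 livers. Abca1 lies between 279 and 321 CPM in WT and between 375 and 481 CPM in HKO livers, and Pltp in WT replicate 1 stands at 36.2 CPM.

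Abca1, the transporter that starts HDL formation, lies on chromosome 4 of GRCm38 from 53030789 to 53159895. It was measured at 288, 279, 305 and 321 CPM in WT replicates 1 to 4 and at 406, 375, 481 and 385 CPM in HKO replicates 1 to 4. The WT livers lay close together, the HKO livers were spread more widely, and the lowest HKO liver stood above the highest WT liver. The means were 298 ± 18.6 CPM in WT and 412 ± 47.5 CPM in HKO (SD, n = 4 each), a 1.38-fold level. This gave a log2 fold change of 0.47 ± 0.09 (SE), with a 95% interval of 0.26 to 0.67 and an adjusted p of 0.0175 by edgeR with Benjamini-Hochberg adjustment. The highest liver was HKO replicate 3, and without it the log2 fold change was 0.38 with an adjusted p of 0.0328 (edgeR). The call was lost without WT replicate 1 (log2 fold change 0.45, adjusted p = 0.0608) and without WT replicate 2 (0.44, adjusted p = 0.0745), which changed the size of the difference little.

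Abcg1, which loads cholesterol onto formed HDL, was the least abundant of the 8 genes per length of transcript. The gene lies on chromosome 17 from 31057694 to 31117981. Its levels were 5.87, 7.26, 8.60 and 3.81 CPM in WT replicates 1 to 4 and 8.10, 5.17, 5.24 and 8.26 CPM in HKO replicates 1 to 4. The genotypes overlapped throughout, and both the lowest and the highest liver were WT. The means were 6.39 ± 2.05 CPM in WT and 6.69 ± 1.72 CPM in HKO, and the log2 fold change was 0.06 ± 0.25 with a 95% interval of -0.50 to 0.62 (adjusted p = 0.935, edgeR). This interval also holds the difference measured for Abca1. The sign of the difference turned under total count scaling, to -0.05. It also turned without WT replicate 4, to -0.12, and without HKO replicate 1 or HKO replicate 4, to -0.05 in each.

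Abcg1 is strongly expressed in macrophages, and the summed level of 12 Kupffer cell and macrophage markers also varied within each genotype. It was 136, 327, 317 and 172 CPM in WT replicates 1 to 4 and 287, 98.8, 281 and 303 CPM in HKO replicates 1 to 4. The livers with the lowest sum, HKO replicate 2 and WT replicates 1 and 4, were among those with less Abcg1, while HKO replicate 3 had low Abcg1 at a sum near that of HKO replicate 1. Of these 12 markers 0 were called by edgeR, 0 had an unadjusted p under 0.05, and DESeq2 and limma-voom called 0. Their median log2 fold change was -0.01. The summed level of 8 sinusoidal endothelial markers was 109, 120.3, 249 and 82.2 CPM in WT replicates 1 to 4 and 274, 127, 132 and 237 CPM in HKO replicates 1 to 4. The 3 livers with the most Abcg1, WT replicate 3 and HKO replicates 1 and 4, also had the highest endothelial sums, and WT replicate 4 was the lowest in both. Of these 8 markers 0 were called by edgeR, 0 had an unadjusted p under 0.05, and DESeq2 and limma-voom called 0. Their median log2 fold change was 0.49, with 7 of the 8 above 0. The part of macrophages or endothelial cells in the level of Abcg1 was not tested.

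Within a liver, the ratio of 2 genes does not depend on the scaling between libraries. The log2 ratio of Abca1 to Abcg1 averaged 5.60 ± 0.56 in WT and 5.97 ± 0.46 in HKO livers, a difference of 0.37 (two-sided exact permutation test over 70 allocations, p = 0.286, adjusted p = 0.429 over 3 ratios). The smallest p these allocations allow is 0.0286. Adjusted over 3 ratios, a single ratio at that p would still miss the threshold, so a miss was set by the design. So the data did not show that Abca1 and Abcg1 differed in their response, though Abca1 alone passed the test.

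Apoa1 encodes the main protein of HDL and was among the most abundant mRNAs of the group. The gene lies on chromosome 9 from 46228630 to 46230469. It was measured at 5485, 3806, 2917 and 3459.6 CPM in WT replicates 1 to 4 and at 5112, 4785, 6076 and 6023 CPM in HKO replicates 1 to 4. All HKO livers stood above WT replicates 2, 3 and 4, and WT replicate 1 lay within the HKO range. The log2 fold change was 0.49 ± 0.18 with a 95% interval of 0.10 to 0.88, and it missed the threshold (adjusted p = 0.155, edgeR). Without WT replicate 1 it was 0.70 with an adjusted p of 0.0342 (edgeR). That was the 1 of 8 fits with a liver left out that passed, and the others gave adjusted p from 0.157 to 0.312.

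Apoa2, the second protein of HDL by amount, showed no such difference. The gene lies on chromosome 1 from 171221564 to 171226379. Its levels were 2991, 3218, 2262 and 2977 CPM in WT replicates 1 to 4 and 2298, 3011, 2217 and 3152 CPM in HKO replicates 1 to 4, so that a lower and a higher value were found in both genotypes. The log2 fold change was -0.10 ± 0.15 with a 95% interval of -0.42 to 0.22 (adjusted p = 0.773, edgeR). Apoa2 shares 951 bases with Tomm40l on the opposite strand, whose log2 fold change was -0.05, and use of strand in counting is not given in the sources used here.

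The number of Apoa1 counts for each Apoa2 count was 1.83, 1.18, 1.29 and 1.16 in WT replicates 1 to 4 and 2.22, 1.59, 2.74 and 1.91 in HKO replicates 1 to 4. The median was 1.24 in WT and 2.06 in HKO livers, and only WT replicate 1 reached into the HKO range. On the log2 scale the difference was 0.63 (p = 0.0571 by a two-sided exact permutation test, 0.171 when adjusted over 3 ratios). It missed the threshold, but a single ratio could not pass after this adjustment even without overlap, so nothing is concluded from the miss. Together both genes took 0.568% to 0.862% of all counts of a liver.

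**Figure D3:**
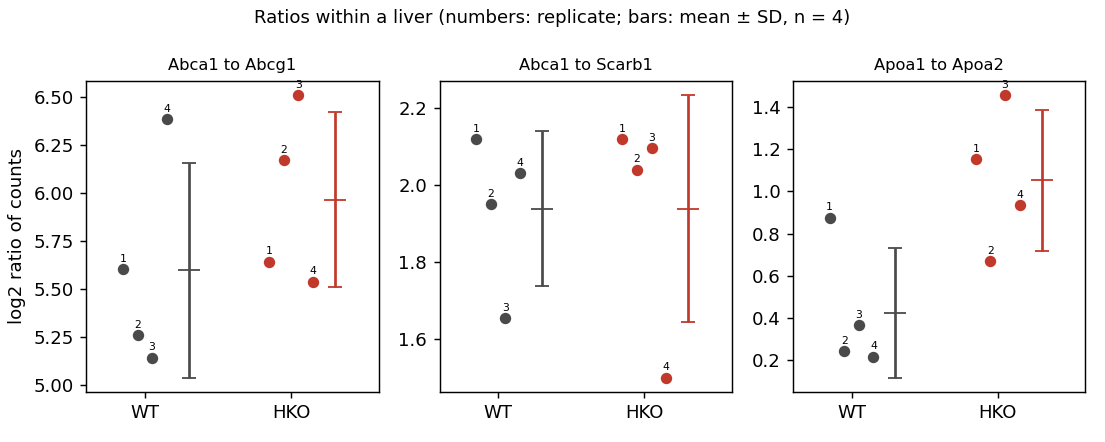
Log2 ratio of the counts of 2 genes in the same liver, for Abca1 to Abcg1, Abca1 to Scarb1 and Apoa1 to Apoa2; each point is 1 liver with its replicate number, and bars give the mean ± SD of 4 livers. The genotypes overlap in all 3 ratios, and Apoa1 to Apoa2 shows the largest difference between the means, 0.63.

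The genes that remodel HDL in plasma did not move as a group. Lcat, on chromosome 8 from 105939551 to 105943402, encodes the enzyme that esterifies HDL cholesterol. It was measured at 165, 187, 181 and 188 CPM in WT replicates 1 to 4 and at 200.3, 204, 179.1 and 218 CPM in HKO replicates 1 to 4. HKO replicates 1, 2 and 4 stood above all WT livers, and HKO replicate 3 fell among them. The log2 difference was 0.15 ± 0.08 with a 95% interval of -0.03 to 0.33 (adjusted p = 0.341, edgeR), and without HKO replicate 3 it was 0.20.

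Lipc encodes hepatic lipase, which hydrolyses phospholipid and triglyceride of HDL and remnant particles, and lies on chromosome 9 from 70798128 to 70952221. Its levels were 83.9, 92.3, 84.6 and 106 CPM in WT replicates 1 to 4 and 105, 136, 113 and 171 CPM in HKO replicates 1 to 4. HKO replicate 4 was the highest, and the genotypes met only at WT replicate 4 and HKO replicate 1. The log2 fold change, 0.51 ± 0.15 with a 95% interval of 0.19 to 0.84, missed the threshold in edgeR (adjusted p = 0.0768) and passed it in DESeq2 (adjusted p = 0.0166). Without HKO replicate 1 edgeR gave 0.61 with an adjusted p of 0.0369. That was the 1 of 8 fits with a liver left out that passed, and the others gave adjusted p from 0.0654 to 0.196.

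Pltp encodes the phospholipid transfer protein, which moves phospholipid onto HDL, and lies on chromosome 2 from 164839518 to 164857708. It was measured at 36.2, 17.0, 11.6 and 7.36 CPM in WT replicates 1 to 4 and at 6.82, 4.32, 6.54 and 5.87 CPM in HKO replicates 1 to 4. The HKO livers lay close together below all WT livers, while the WT livers were widely spread and WT replicate 4 nearly met the HKO range. On the log2 scale HKO over WT stood at -1.61 ± 0.49, the largest in size of the 8, with a 95% interval of -2.76 to -0.45. It missed the threshold in edgeR (adjusted p = 0.127) and passed it in DESeq2 (adjusted p = 0.0265). WT replicate 1 carried much of its size, since without that liver the log2 fold change was -1.02 (adjusted p = 0.0888, edgeR). Without WT replicate 4, the lowest WT liver, it was -1.87 (adjusted p = 0.0445, edgeR), the 1 of 8 fits with a liver left out that passed.

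Pltp shares 1515 bases with Ctsa on the opposite strand, which averaged 85.8 ± 16.6 CPM in the WT and 66.1 ± 7.89 CPM in the HKO group (log2 fold change -0.38, adjusted p = 0.144, edgeR). WT replicate 1 also had the highest sum of 8 hepatic stellate cell markers, 553 CPM, against 313 to 452 CPM among the other 7. Pltp did not follow this sum throughout. WT replicate 2 had the next highest Pltp but the lowest sum of the WT livers, below the sums of HKO replicates 1 and 3. In that list 2 of 8 markers, the collagens Col1a1 and Col3a1, were called lower in HKO livers, beside 3.37% of all genes tested. The other 6 were not called, at log2 fold changes from -0.48 for Pdgfrb to 0.23 for Reln, and the median of the list was -0.32. The part of Ctsa or of stellate cells in the level of Pltp was not tested.

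Scarb1, the hepatic HDL receptor, lies on chromosome 5 from 125277087 to 125341094. It was measured at 66.1, 72.2, 96.8 and 78.5 CPM in WT replicates 1 to 4 and at 93.4, 91.2, 112 and 136 CPM in HKO replicates 1 to 4. WT replicate 3 was above 2 of the HKO livers, and the other WT livers were below all of them. The log2 fold change of 0.46 ± 0.15, with a 95% interval of 0.13 to 0.80, was close in size to that of Abca1 and missed the threshold in edgeR (adjusted p = 0.111). It passed in DESeq2 (adjusted p = 0.0411) and in edgeR without WT replicate 3 (0.58, adjusted p = 0.04999). That was the 1 of 8 fits with a liver left out that passed, and the others gave adjusted p from 0.0826 to 0.282.

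Abca1 and Scarb1 stand at opposite ends of HDL traffic, formation and uptake. The number of Abca1 counts for each Scarb1 count was 4.35, 3.87, 3.15 and 4.09 in WT and 4.35, 4.12, 4.28 and 2.83 in HKO replicates 1 to 4. The other livers of both genotypes lay near 4, and the low values were WT replicate 3 and HKO replicate 4. The mean log2 ratio was 1.94 ± 0.20 in WT and 1.94 ± 0.30 in HKO livers (p = 0.971 by a two-sided exact permutation test, 0.971 when adjusted over 3 ratios), and a p of this size does not show that both genes moved alike.

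**Figure D4:**
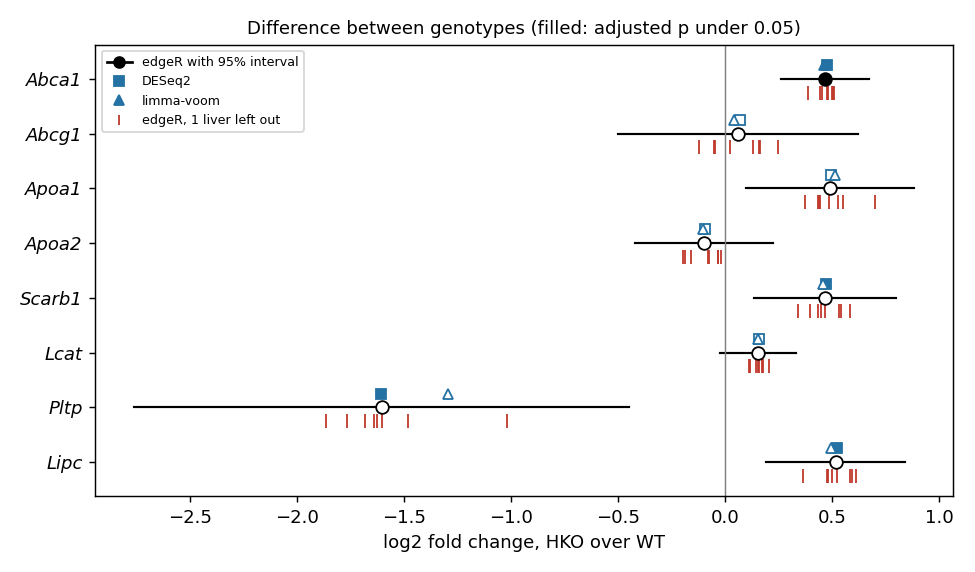
Log2 fold change of HKO over WT for the 8 HDL genes; black points and lines are edgeR values with 95% intervals, blue squares DESeq2, blue triangles limma-voom, red ticks edgeR with 1 liver left out, and filled symbols have an adjusted p under 0.05. Abca1 is filled in all 3 tools, Scarb1, Pltp and Lipc in DESeq2 alone, and the red ticks of Pltp run from -1.87 to -1.02.

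Levels of different genes were compared per kilobase of transcript, as the median over the 8 livers of CPM per kilobase. Apoa2 (5760.1) and Apoa1 (4781) were the highest and their ranges overlapped. Lcat (139.7) followed below both, then Lipc (54.9), Scarb1 (36.6) and Abca1 (33.9), of which neighbours overlapped, and Pltp (3.18) and Abcg1 (1.13) were the lowest. Lcat and Lipc, Abca1 and Pltp, and Pltp and Abcg1 did not overlap. The mRNAs of the secreted apolipoproteins thus stood far above those of the transporters in both genotypes.

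Marker genes of the liver's cells were measured beside these values. The hepatocyte marker Alb was at -0.03 on the log2 scale of HKO over WT (adjusted p = 0.967, edgeR). The summed level of 9 hepatocyte markers ran from 88686 to 117273 CPM in the WT and from 79421 to 135750.0 CPM in the HKO group. Of these 9 markers 4 were called higher in HKO livers, namely Cps1, Serpina1c, Ass1 and Hnf4a, and none lower, beside 1.66% of all genes tested called higher. None of the 9 was at 0, and 1 further listed marker was not in the table. Their part in the higher Abca1 was not tested.

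The other proteins of the HDL particle moved in both directions. Of 16 tested genes of a list of 17, 1 was called higher and 2 lower in HKO livers, with a median log2 fold change of -0.01. For this and the following lists, the shares over all genes tested were 1.66% called higher and 3.37% called lower. Apom, a carrier of sphingosine-1-phosphate on HDL, rose from 61.7 ± 11 to 112 ± 26.7 CPM (log2 fold change 0.85 ± 0.18, adjusted p = 0.0263, edgeR), with every HKO liver above every WT liver. Apoa4, an apolipoprotein of the same gene cluster as Apoa1, fell from 1772 ± 489 to 357 ± 83.7 CPM (-2.31 ± 0.23, adjusted p = 0.00154, edgeR). Apoc2, the cofactor of lipoprotein lipase, fell from 134 ± 12.3 to 73.1 ± 16.9 CPM (-0.87 ± 0.15, adjusted p = 0.0101, edgeR). Apoe, a ligand for the uptake of remnant particles, was at 10581 ± 1131 and 9751 ± 839 CPM (-0.12 ± 0.12, adjusted p = 0.649, edgeR). Apoa4 and Apoc2 were called with any 1 liver left out, and Apom was not called without WT replicate 2, 3 or 4 or HKO replicate 3 (adjusted p from 0.0576 to 0.0812).

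Among 12 other genes of HDL remodelling and maturation, 1 was called higher and 2 lower, with a median of -0.05. Gpld1, a phospholipase carried on an HDL fraction, rose by 0.57 ± 0.11 on the log2 scale (adjusted p = 0.0123, edgeR). Pcsk6, a proprotein convertase that cleaves endothelial lipase, was at -0.59 ± 0.11 on that scale (adjusted p = 0.0109, edgeR). Lipg, the endothelial lipase that degrades HDL phospholipid, fell from 20.4 ± 5.15 to 10.1 ± 2.72 CPM (-1.01 ± 0.22, adjusted p = 0.0319, edgeR). Gpld1 and Pcsk6 were called with any 1 liver left out, whereas Lipg was called in 2 of these 8 fits, without WT replicate 4 or HKO replicate 1 (adjusted p over the 8 from 0.0181 to 0.0871).

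Of the genes of HDL uptake and clearance, 10 of 13 were tested, and edgeR called 0 higher and 1 lower, with a median of 0.11. Of those above 0, 1 had an unadjusted p under 0.05. DESeq2 called 0 higher and 2 lower, Cd36 and Pdzk1, and limma-voom 0 higher and 1 lower. Cd36, a scavenger receptor of the same family as Scarb1, fell from 441 ± 82.0 to 88.4 ± 34.6 CPM (-2.32 ± 0.34, adjusted p = 0.0142, edgeR). Pdzk1, which holds SR-BI at the hepatocyte surface, was lower in every HKO liver than in any WT liver, at 74.1 ± 2.94 and 62.6 ± 2.90 CPM, and missed the threshold in edgeR (-0.24 ± 0.07, adjusted p = 0.0768). It passed in DESeq2 (adjusted p = 0.0490) and in edgeR under total count scaling (-0.33, adjusted p = 0.0240), which moved the median of all genes to -0.08. Pdzk1 failed in limma-voom (adjusted p = 0.0779) and in all 8 edgeR fits with 1 liver left out (adjusted p from 0.0711 to 0.229). The mean levels of the receptor Scarb1 and of its adaptor Pdzk1 thus differed between the genotypes in opposite directions, and both passed the threshold in DESeq2 but not in edgeR with TMM scaling.

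Liver X receptors (LXR) are the sterol sensors that turn on Abca1, Abcg1 and other sterol exporters. Of 18 receptors and other targets, edgeR called 0 higher and 2 lower, Smpdl3a and the Apoc2 named above, with a median of 0.14. Of those above 0, 4 had an unadjusted p under 0.05, DESeq2 called 2 higher and 3 lower, and limma-voom 1 higher and 2 lower. Cyp7a1, the rate-limiting enzyme of bile acid synthesis, was at 92.0, 89.9, 139 and 174 CPM in WT and at 443, 261, 354 and 183 CPM in HKO replicates 1 to 4. The lowest HKO liver stood just above the highest WT liver. Its log2 fold change of 1.33 ± 0.34, the largest in size of this list, missed the threshold in edgeR (adjusted p = 0.0773). Cyp7a1 passed in DESeq2 (adjusted p = 0.00405) and in limma-voom (adjusted p = 0.0266). With 1 liver left out, edgeR called it only without HKO replicate 4 (1.51, adjusted p = 0.0478), and the other fits gave adjusted p from 0.0670 to 0.184. With the replicate block the adjusted p was 0.218 (edgeR). The receptor genes Nr1h3 and Nr1h2 had log2 fold changes of 0.08 ± 0.08 and 0.18 ± 0.14 (adjusted p = 0.667 and 0.538, edgeR). Abcg5 and Abcg8, the paired exporters of sterol into bile, were higher in every HKO liver than in any WT liver and missed the threshold in edgeR (0.26 ± 0.09 and 0.25 ± 0.08, adjusted p = 0.127 and 0.0878), while Abcg8 passed it in DESeq2 (adjusted p = 0.0383). Lpcat3, which remodels phospholipids, was at -0.41 ± 0.11, just outside the threshold in edgeR (adjusted p = 0.0516). Lpcat3 was inside it in DESeq2 (adjusted p = 0.0232) and in edgeR under total count scaling (-0.49, adjusted p = 0.0145). With 1 liver left out, edgeR called it only without WT replicate 3 (-0.49, adjusted p = 0.0142), and the other fits gave adjusted p from 0.0612 to 0.177. Srebf1, a switch of fatty acid synthesis, was at 0.10 ± 0.21 (adjusted p = 0.853, edgeR). Smpdl3a, a phosphodiesterase, was at -0.45 ± 0.11 (adjusted p = 0.0444, edgeR), and with 1 liver left out its call held in 2 of 8 fits, without WT replicate 4 or HKO replicate 4 (adjusted p over the 8 from 0.0190 to 0.157). The sign for Nr1h3 turned under total count scaling, to -0.0083.

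Of 12 other regulators of Apoa1 and HDL genes, 2 were called higher and 1 lower, with a median of 0.04. Hnf4a and Nr5a2, nuclear receptors that drive Apoa1 and Scarb1 in hepatocytes, rose by 0.36 ± 0.09 and 0.37 ± 0.09 on the log2 scale (adjusted p = 0.0406 and 0.0368, edgeR). Ppara, the fatty acid sensor, was at -0.33 ± 0.08 (adjusted p = 0.0358, edgeR). These 3 calls were close to the threshold: with 1 liver left out Hnf4a was called only without HKO replicate 3, Nr5a2 only without WT replicate 3 or HKO replicate 3, and Ppara only without HKO replicate 1 (adjusted p over these fits up to 0.126). Under total count scaling Hnf4a and Nr5a2 were at 0.27 and 0.28 and were not called (adjusted p = 0.151 and 0.153, edgeR). Srebf2, the host gene of miR-33, was at 15.5 ± 3.73 and 11.9 ± 1.75 CPM (-0.37 ± 0.17, adjusted p = 0.243, edgeR). WT replicate 1, at 20.9 CPM, was the highest liver, and without it the log2 fold change was -0.19 (adjusted p = 0.556, edgeR).

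Of other cholesterol transporters and known miR-33 targets, 16 of 17 were tested, and 1 was called higher and 3 lower, with a median of -0.11. Atp8b1, a phospholipid flippase of the canalicular membrane, rose by 0.50 ± 0.10 on the log2 scale (adjusted p = 0.0196, edgeR). Lipa and Nceh1, which hydrolyse cholesteryl esters inside and outside the lysosome, were at -0.64 ± 0.13 and -0.53 ± 0.13 (adjusted p = 0.0181 and 0.0456, edgeR). Cpt1a, which admits fatty acids to mitochondria, was at -0.45 ± 0.11 (adjusted p = 0.0368, edgeR). Crot, which handles peroxisomal fatty acids, was at -0.41 ± 0.14 (adjusted p = 0.123, edgeR), and at -0.51 under total count scaling (adjusted p = 0.0479). Crot failed in all 8 edgeR fits with 1 liver left out (adjusted p from 0.0901 to 0.316). Npc1, the lysosomal cholesterol exporter, was at 0.09 ± 0.11 (adjusted p = 0.703, edgeR). The call of Lipa was lost without WT replicate 1 or 2 (adjusted p = 0.0602 and 0.0705) and that of Atp8b1 without WT replicate 1, WT replicate 2 or HKO replicate 4 (adjusted p = 0.0674, 0.0780 and 0.0581), all by edgeR. Cpt1a was called only without WT replicate 4 or HKO replicate 1, and Nceh1 only without WT replicate 4 (adjusted p over these fits up to 0.142).

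Over the 6 lists, 15 of 79 tested genes were called, 5 higher and 10 lower, with a median log2 fold change of 0.04. Of all genes tested 5.03% were called, 1.66% as higher and 3.37% as lower. These lists were drawn up with earlier results of these data known, and their counts are a description. Of the 79 list genes with an annotated 3'UTR, 10 held a match to miR-33-5p, and of these 1 was called higher, Atp8b1, 3 lower, Cd36, Cpt1a and Ppara, and 6 were not called. Their log2 fold changes ran from -2.32 to 0.50 with a median of -0.18. Among all genes with a 3'UTR of at least 50 bases, 16.2% held such a match. Genes with and without a match were not compared, so a link between match and difference was not tested.

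**Figure D5:**
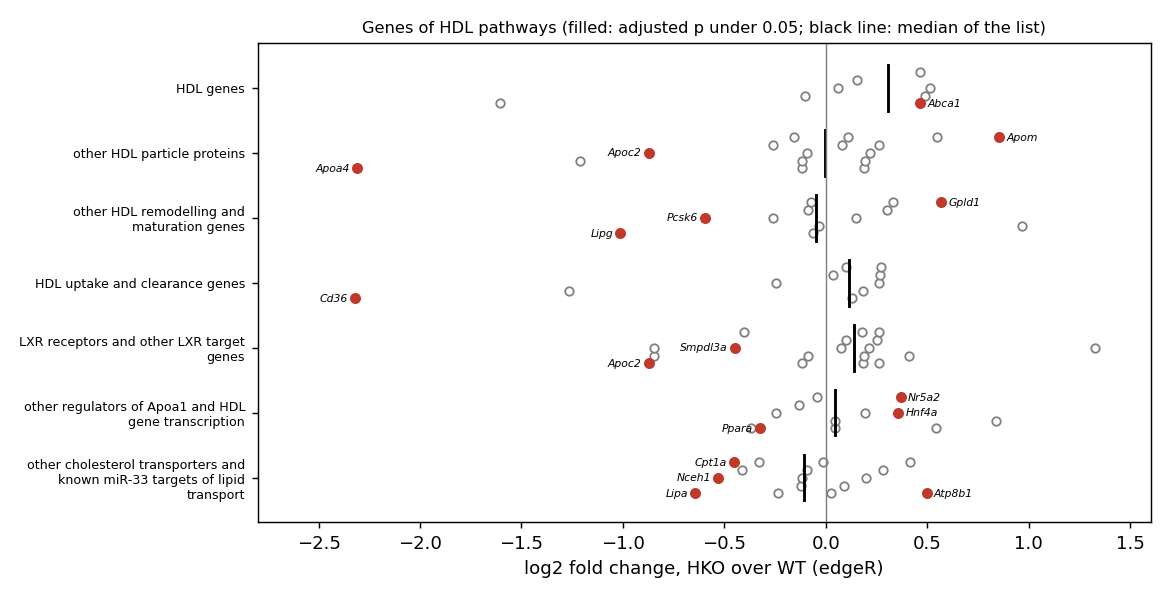
Log2 fold change of HKO over WT (edgeR) of the 8 HDL genes and of the tested genes of 6 lists of related genes; each point is 1 gene, filled and named where the adjusted p is under 0.05, and the black line is the median of the list. The median is 0.31 for the 8 HDL genes and between -0.11 and 0.14 for the lists, and named genes lie on both sides of 0 in 4 of the 6 lists.

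The genes whose pattern over the 8 livers was most like that of Abca1 were found by the root mean square difference of log2 CPM after subtracting each gene's own mean, over 7272 genes with a mean of at least 10 CPM. They were Prpf6 (0.0771), a splicing factor, Zmym5 (0.0818), Casd1 (0.0850), Txlng (0.0856) and Klhl2 (0.0864). Their log2 fold changes were between 0.36 and 0.48. Of the other HDL genes with such a level, Scarb1 ranked 1424 and Lcat 1905, followed by Lipc at 3144, Apoa1 at 3596, Apoa2 at 6109 and Pltp at 7202. So the genes nearest to Abca1 by this measure were not those of HDL.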

How the data were processed

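Livers of 4 WT and 4 HKO mice were compared. The authors deposited estimated counts per gene, from Partek's expectation-maximization quantification, without normalization. STAR and Partek are named in the submitters' processing notes, without versions. The labels name both rRNA depletion and a small RNA library kit, so the library type is uncertain. Coordinates are on GRCm38: 17789 of 17810 symbols matched RefSeq and 82.5% of these shared a start or end, when 1 was taken off the listed end.

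Estimated counts were rounded and tested in R 4.3.3 with edgeR 4.0.16 (default expression filter with a minimum count of 10, TMM, robust quasi-likelihood test, Benjamini-Hochberg adjustment). SE was taken as the size of the log2 fold change over the root of the F statistic. Alternatives used DESeq2 1.42.0, limma-voom (limma 3.58.1), other scalings and filters, a replicate block and leaving out each liver. Ratios had 0.5 added to each count and were compared by exact permutation tests in Python 3.11.15 with scipy 1.17.1. The models were tested on simulated data. Matches were sought in 3'UTRs of GENCODE M21, the longest for each gene.

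The HDL genes and the gene lists were chosen with earlier results of these data known. Named genes are the 8 HDL genes, every list gene called (up to 8 per list), some list genes for their role (1 gene of the uptake list is not reported here), and the 5 genes most like Abca1. Marker lists of monocyte-derived macrophages (2 of 5 tested of 8 listed called lower, Gpnmb and Ccr2, beside 3.37% of all genes tested), cholangiocytes (0 of 3), lymphocytes (0 of 1), red blood cells (0 of 5) and of pancreas, gut and fat (0 tested, summed level at most 1.70 CPM) were also tested with edgeR. Gpnmb lay below the floor of 3 counts in every HKO liver (0 to 0.170 CPM) and passed the filter through the WT livers (0.768 to 1.49 CPM). In those lists with 0 calls, 0 markers had an unadjusted p under 0.05 and DESeq2 and limma-voom called 0, except 1 lymphocyte marker past both the unadjusted p and DESeq2.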

Additional observations from a re-analysis of the deposited data

Results flagged for a closer look

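In 7 of 86 groups of 4 livers, 1 liver stood away from the other 3 by more of the group's range than Dixon's 95% critical value allows, where chance gives about 4.3. In the log2 ratio of Abca1 to Scarb1, HKO replicate 4 was at 1.50 and the other HKO livers at 2.04 to 2.12. Nr1h3 was at 44.9 CPM in HKO replicate 2 and at 39.6 to 40.1 in the others. Hnf4a was at 471 CPM in WT replicate 3 against 435 to 441, and Nr5a2 at 79.8 CPM in the same liver against 69.5 to 71.1. Atp8b1 was at 69.8 CPM in WT replicate 4 against 58.2 to 58.6, and Klhl2 at 40.4 CPM in that liver against 31.2 to 32.4. Txlng was at 67.6 CPM in HKO replicate 2 against 75.1 to 76.0. In none of these 7 groups was the liver that stood away HKO replicate 3, and the cause was not tested.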

How the results depend on the processing

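For the HDL genes, their ratios and the counts of calls, 194 of 223 values under another setting kept direction and side of the threshold. Abca1 passed in edgeR under all other scalings, filters and fits and in both other tools, and failed without WT replicate 1 or 2 (log2 fold change 0.38 to 0.51 with 1 liver left out). DESeq2 also called Scarb1 (0.47), Pltp (-1.61) and Lipc (0.52), hence 4 HDL genes, and 975 genes (376 higher, 599 lower) against 624 (206, 418); it tested 13582 genes. The sign turned for Abcg1 under total count scaling (-0.0482) and the same without the 10 most abundant genes (-0.0437), for Nr1h3 (-0.00826 and -0.00756) and for Npc1 (-0.00129 under the first). Total count scaling called 119 genes higher and 621 lower and moved the median of all genes to -0.08; the cause was not tested. With 1 liver left out, ranges were 212 to 598 genes called (272, 212 and 364 without WT replicate 1, WT replicate 2 and HKO replicate 4), 0 to 2 HDL genes called, Abcg1 -0.12 to 0.24, Apoa1 0.37 to 0.70, Apoa2 -0.20 to -0.02, Scarb1 0.34 to 0.58, Lcat 0.11 to 0.20, Pltp -1.87 to -1.02, Lipc 0.36 to 0.61, Srebf1 -0.0893 to 0.26, Srebf2 -0.47 to -0.19, Npc1 -0.0297 to 0.14, and for the log2 ratios 0.19 to 0.63 (Abca1 to Abcg1), -0.0944 to 0.147 (Abca1 to Scarb1) and 0.49 to 0.78 (Apoa1 to Apoa2). Same-numbered livers came from different mice and did not deviate together (correlations -0.15 to 0.01), so the numbers do not pair them. The replicate block called 456 genes and 2 HDL genes, adding Lipc (0.50, adjusted p = 0.0251, edgeR). The legacy quasi-likelihood method, chosen after seeing the data, called 638. Abcg1, with 58 to 173 counts a liver, had the widest interval after Pltp.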

Other observations

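Besides Abca1, 6 tested genes held at least 2 matches over 8 bases to the miR-33-5p seed in the 3'UTR, namely Arid5b, Klf7, Pdgfra, Plxdc2, Rpp14 and Zfp28. By edgeR 0 of these 6 were called, beside 5.03% of all genes tested, and 2 had an unadjusted p under 0.05. DESeq2 and limma-voom called 0, beside 7.18% of genes and 603 of 12395 genes. At these shares 0 calls among 6 genes is no result about such matches. Their log2 fold changes were 0.53 for Arid5b, 0.43 for Klf7, 0.40 for Rpp14, 0.15 for Plxdc2, -0.03 for Pdgfra and -0.83 for Zfp28. Klf7, Plxdc2 and Zfp28 had low mean levels, at 0.68, 1.22 and 2.14 CPM in WT and 0.90, 1.38 and 1.19 CPM in HKO livers. The 6 genes were named after their values were seen.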
